A study of Mus musculus with 9 samples.

Results

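The duodenum of a mouse gluten hypersensitivity model of celiac disease was compared with that of wild-type control mice across all expressed genes. The comparison holds the 6 libraries whose treatment label names one of these groups, of 9 libraries in the series, and 14683 of the 54532 genes in the expression table averaged 0.5 FPKM or more across all 9 libraries and were tested. FPKM scales the fragments of a gene by its length and by a size set for each library. The control group, 3 libraries, is labelled wild type with gluten stimulation that was not enhanced. The CeD group, 3 libraries, is labelled as a celiac disease model of the delayed-type hypersensitivity kind given enhanced gluten stimulation, so the model and the stronger gluten challenge differ together and cannot be told apart. The CeD+GR group, also 3 libraries, is the same model with enhanced gluten, given composite nanoparticles of gliadin and rapamycin beforehand. It enters the fit as part of the estimate of the spread, and its values are given beside a few genes. Gliadin is a fraction of the gluten proteins, and rapamycin inhibits the kinase complex mTORC1. The labels give no strain, age, sex or number of animals, and do not state that each library is 1 animal, so a p-value here reflects only how far these samples scatter, which can be technical scatter.

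Celiac disease is an immune enteropathy in which CD4 T cells recognise gluten peptides deamidated by transglutaminase 2, and intraepithelial lymphocytes with cytotoxic and natural killer receptors attack the enterocytes of the proximal small intestine. The duodenum absorbs iron, fat and sugars through a brush border of short-lived enterocytes, which are renewed from crypts that also hold Paneth and goblet cells. A delayed-type hypersensitivity model relies on T cells that were primed against the antigen and are then challenged with it.

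The tissue label was checked against defining markers. Villin, Vil1, lay at 514 to 701 FPKM in control and 477 to 927 in CeD, and the fatty acid binding protein Fabp1 lay at 3724 to 6426 and 2312 to 5200. The ileal markers Fabp6 and Slc10a2 stayed at or below 0.143 and 0.384 FPKM in the 6 libraries, and the colonic carbonic anhydrase Car1 was listed at 0 in all of them. Pdx1, a homeobox factor that marks pancreas and proximal duodenum, was listed at 27.2, 26.0 and 26.3 FPKM in control and at 25.3, 12 and 6.64 in CeD 1, 2 and 3. The iron exporter ferroportin, Slc40a1, another gene of the proximal duodenum, was at 40.9, 18.9 and 21.7 FPKM in control and at 40.2, 5.51 and 1.73 in CeD. CeD 2 and CeD 3 thus had less of both transcripts than any control library, and CeD 1 lay within the control range for Slc40a1.

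Several libraries stood apart before any comparison of groups. Control 1 and CeD 1 correlated at 0.974 over the tested genes on the log2 scale, while CeD 1 correlated at 0.881 to 0.916 with the libraries numbered 2 and 3, lowest with CeD 3. The mean log2 level of 21 Paneth cell genes was 4.11 in control 1 and 4.92 in CeD 1 against 1.47 to 2.23 in the other 4 libraries. The mean log2 level of 29 cell cycle genes was 2.54 and 2.94 in the same libraries against 0.91 to 1.43. CeD 1 also carried acinar pancreas transcripts, with the mean log2 level of 22 exocrine genes at 6.99 against 1.34 to 2.10 in control, and at 0.20 and 0.13 in CeD 2 and CeD 3. Chymotrypsinogen, Ctrb1, was at 1472 FPKM in CeD 1, at 22.5, 4.20 and 5.00 in control, and at 0.0790 and 0 in CeD 2 and CeD 3. The gastric and duodenal gland peptide Tff2 was at 46.5 FPKM in CeD 1 and at most 0.564 elsewhere among the 6. CeD 3 had the highest smooth muscle level, 5.43 against 4.01 to 4.47 in control. CeD 2 had the highest level of haemoglobin genes, 3.05 against 0.92 to 2.09 in control, and of the fat cell gene Cfd, 20.5 against 0.148 to 2.14. In the CeD+GR group, which enters the estimate of the spread, CeD+GR 3 carried stomach transcripts, with Tff2 at 116219 FPKM, the gastric peptide gene Gkn3 at 18377 and the mean log2 level of 12 stomach and duodenal gland genes at 9.16 against at most 0.52 in the other 8 libraries. CeD+GR 2 carried fat cell transcripts, with Cfd at 198 FPKM and adiponectin, Adipoq, at 26.6. Of the 60 gene lists described below, 42 had a median log2 fold change that took both signs when 1 of the 6 libraries was left out, so the direction of these lists depends on which libraries are included.

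**Figure D1:**
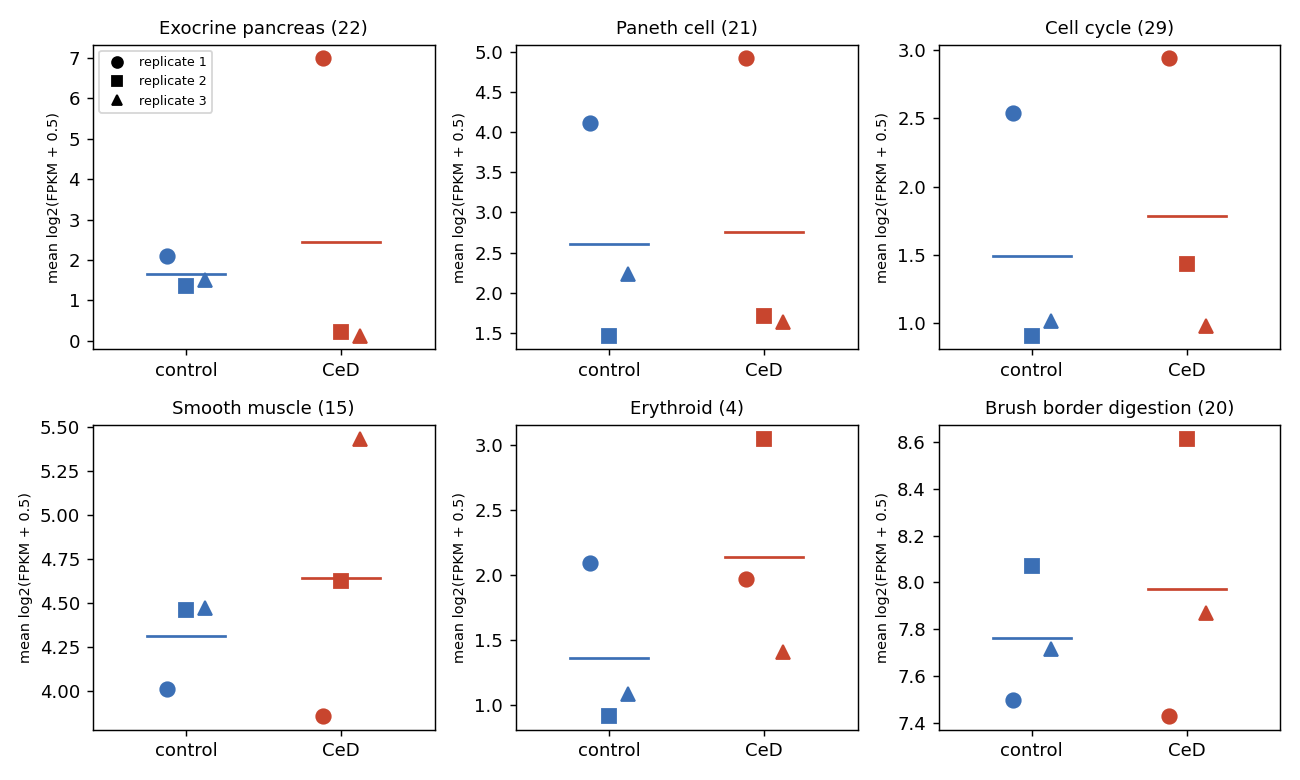
Mean log2(FPKM + 0.5) of 6 gene lists (vertical axis) in control and CeD; each point is 1 library, its shape gives the replicate number, horizontal lines are group means and the number of tested genes stands in brackets. The pancreas list is high in CeD 1 alone, the Paneth and cell cycle lists are high in both libraries numbered 1, and the smooth muscle list is highest in CeD 3.

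Across the tested genes no difference passed the test. With limma, 0 genes were higher and 0 lower at an adjusted p under 0.05 (0% in each direction), and the smallest adjusted p was 1. At an unadjusted p under 0.05 limma gave 40 higher genes (0.272%) and 63 lower genes (0.429%). Together these made 0.701% of the tested genes. Evenly spread p-values would give a larger share, a fraction of 0.05 and not 0.05%. With the replicate number as a block these counts were 74 and 119, and again 0 genes passed after adjustment, with a smallest adjusted p of 0.236. Without CeD+GR 3 they were 66 and 97, with 0 genes passing after adjustment and a smallest adjusted p of 0.863. All 3 CeD values lay above all 3 control values for 323 genes (2.2%) and below them for 366 genes (2.49%), together 4.69%, and this is what no overlap means below. The log2 fold changes, taken between log2(FPKM + 0.5) values and so too small for weakly expressed genes, had a median of 0.00 and ran from -0.51 at the 5th to 0.50 at the 95th percentile. Their median standard error was 0.35. Differences of more than 2-fold were measured for 133 genes higher in CeD, 29 of them with no overlap, and for 182 lower genes, 33 with no overlap. Everything below is a description of values that did not pass the adjusted test. In whole tissue, fewer cells of a type and less RNA per cell cannot be told apart.

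**Figure D2:**
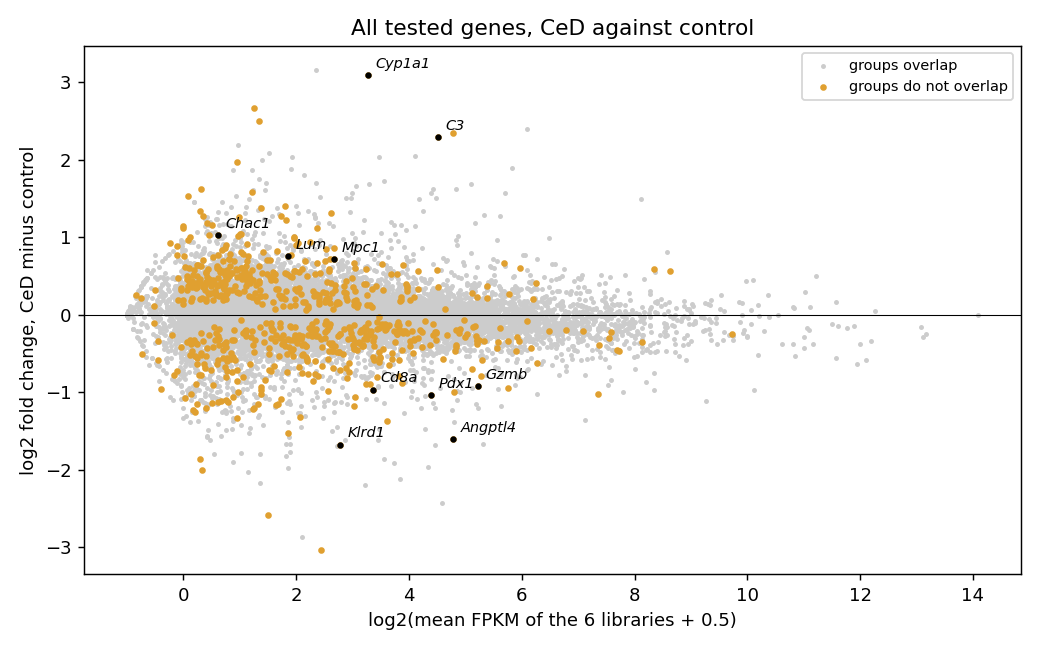
Log2 fold change of CeD minus control (vertical axis) against the log2 mean FPKM of the 6 libraries plus 0.5 (horizontal axis) for the 14683 tested genes; orange points are the 689 genes whose groups do not overlap, and labelled genes are black. Cyp1a1 and C3 lie far above the bulk of the genes, and Klrd1 and Angptl4 far below it.

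The leading genes are the 12 protein-coding genes per direction with the smallest unadjusted p among those with no overlap, so the absence of overlap was required of them and is no finding, nor is a shared direction in every pair of libraries, which follows from it.

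Among the lower genes, Angptl4 stood first. Its product inhibits lipoprotein lipase, and it is a classical target of the fatty acid receptors of the PPAR family. Angptl4, at chr17:33773750-33781575 of mm10, was at 36.9, 36.9 and 48.4 FPKM in control 1, 2 and 3 and at 9.32, 17.5 and 13.3 in CeD 1, 2 and 3. The highest CeD library thus stood below the lowest control library by a wide margin. The log2 fold change was -1.60 ± 0.38 (SE), with an unadjusted limma p of 0.00232 and an adjusted p of 1, and it ranged from -1.81 to -1.37 when 1 library was left out.

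Klrd1, Cd8a and Fasl, which follow among the lower genes, belong to killer lymphocytes. The chain Klrd1 (CD94), which pairs with NKG2 receptors on natural killer and CD8 T cells, was at 7.03, 11.8 and 11.2 FPKM in control and at 2.93, 2.49 and 2.75 in CeD. Its log2 fold change was -1.68 ± 0.47 (SE, limma, adjusted p of 1). The co-receptor Cd8a was at 11, 12.9 and 15.5 FPKM against 5.63, 6.60 and 7.16, a log2 fold change of -0.97. All CeD libraries lay close together for both genes, while control 1 was the lowest of its group. The death ligand Fasl was at 2.13, 3.53 and 3.09 FPKM against 1.22, 1.25 and 1.32. The lipid-sensing receptor Gpr18, which is also expressed on intraepithelial lymphocytes, was at 2.20, 2.87 and 3.88 FPKM against 1.24, 1.11 and 1.38. Gpr18 lies inside Ubac2 on the opposite strand, and the counting is not stated to use strand.

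The remaining lower genes come from several processes. The BCL-2 family member Bok was at 8.48, 14.9 and 14.2 FPKM in control and at 5.00, 7.17 and 7.02 in CeD. The coactivator of mitochondrial and fat oxidation genes Ppargc1b was at 8.03, 7.19 and 6.61 against 5.13, 3.36 and 4.65. The stress-responsive kinase Plk3 was at 13.9, 17.5 and 24.8 against 9.42, 8.20 and 11.8 FPKM. In each of these genes the margin between the nearest CeD and control library was small beside that of Angptl4. Pbld1 was at 8.31, 15.2 and 12.3 against 5.04, 6.91 and 6.29 FPKM. Parp3, Als2cl and Dnajb3 complete the 12, with log2 fold changes of -0.68, -0.74 and -1.16, and each overlaps another tested gene on the opposite strand, namely Rrp9, Tmie and genes of the Ugt1a cluster.

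Among the higher genes, Cyp1a1 had the greatest fold change of the 24. It encodes a cytochrome P450 that metabolises aromatic compounds and is the standard target of the aryl hydrocarbon receptor. Cyp1a1, at chr9:57687928-57703824 of mm10, was at 0.552, 1.10 and 0.425 FPKM in control and at 10.8, 40.7 and 1.61 in CeD. CeD 2 was the highest and CeD 3 stood only just above control 2. The log2 fold change was 3.10 ± 0.93 (SE), with an unadjusted limma p of 0.0093 and an adjusted p of 1, and it was 2.07 without CeD 2 and 4.22 without CeD 3. The other 7 tested genes of the receptor's battery lay on both sides of 0. The list of 8 had a median of 0.04, between -0.05 and 0.21 when 1 library was left out, the receptor Ahr itself was at 5.74, 2.40 and 2.07 FPKM against 6.52, 4.23 and 2.50, and the target Tiparp at 8.26, 6.52 and 7.37 against 6.18, 7.91 and 6.56.

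The complement component C3 was at 7.18, 4.74 and 3.57 FPKM in control and at 10.4, 19.3 and 89.1 in CeD. Its log2 fold change of 2.29 ± 0.89 (SE, limma, adjusted p of 1) rested most on CeD 3, the library with the highest muscle level, and was 1.43 without that library. The matrix proteoglycan lumican, Lum, was at 2.56, 2.48 and 1.62 FPKM against 4.33, 3.32 and 4.56, and its CeD values were close together. The mitochondrial pyruvate carrier subunit Mpc1 was at 5.01, 4.33 and 3.44 against 6.14, 10.4 and 6 FPKM. Folliculin, Flcn, a regulator of mTORC1 signalling at the lysosome, was at 3.30, 3.35 and 3.83 against 6.03, 4.82 and 6.87. Crebrf, which restrains the stress factor CREB3, was at 4.09, 3.72 and 3.78 against 5.79, 6.56 and 5.20 FPKM. For Flcn and Crebrf the control libraries differed little from one another, and the nearest CeD library stood clear of them.

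CeD 3 was the highest library for 7 of the 12 higher genes, namely C3, Lum and Flcn above and the 4 that follow. The glycogen phosphorylase Pygb was at 10.5, 9.76 and 9.20 FPKM against 11.5, 13 and 19.9. The matrix protein tenascin X, Tnxb, was at 2.64, 1.91 and 1.61 against 3.48, 3.69 and 7.09, and the actin regulator Cap2 at 1.24, 2.40 and 2.21 against 2.41, 3.74 and 8.39. The potassium channel Kcnn3 was at 1.10, 0.510 and 0.363 against 1.13, 1.22 and 2.31 FPKM. The part of the muscle layer in these 4 differences was not tested. The formin-related Daam1 and the ubiquitin ligase Lnx1 had log2 fold changes of 0.59 and 0.69, and Lnx1 overlaps Fip1l1 on the opposite strand.

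**Figure D3:**
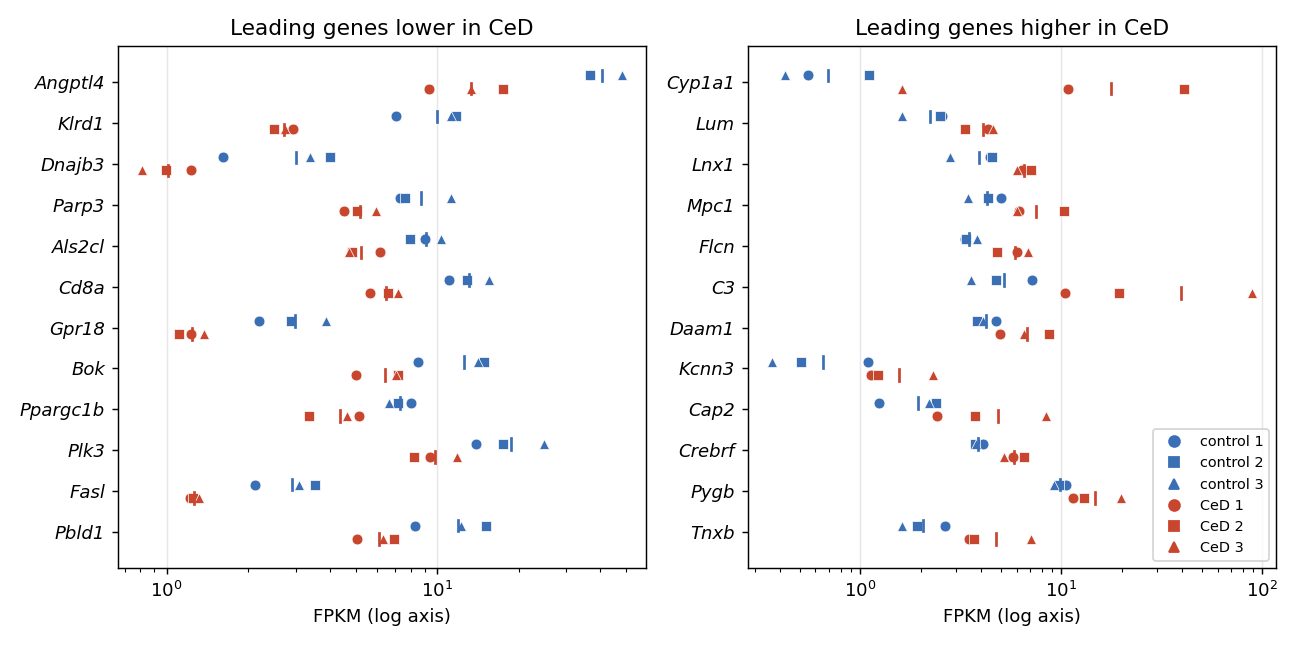
FPKM on a log axis (horizontal) of the 12 leading genes lower in CeD (left) and the 12 higher in CeD (right); points are single libraries, shapes give the replicate number and short vertical lines are group means. Angptl4 and Klrd1 are separated by the widest gaps among the lower genes, and the CeD values of Cyp1a1 and C3 spread over more than those of the other higher genes.

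To show promoter windows of 3 of the genes described here, 300 bases, from 250 before to 50 after the start site, were taken from RefSeq on the gene's strand (build GRCm38.p6). Of the 24 leading genes, 20 have an entry there. Motifs were searched on both strands, matches stand in capitals and none overlaps another, and a match describes letters and not a bound site. Cyp1a1 (chr9:57697363-57697662, plus strand) was searched for GCGTG, the core of the aryl hydrocarbon receptor element, found 1 time here and in 32.4% of all 32851 windows. This window lies inside Cyp1a1 as the expression table bounds it, from 57687928 to 57703824, so the 2 sources place its start differently. Gzmb (chr14:56262285-56262584, minus strand), a granzyme gene described below, was searched for TGTGGT, a core of RUNX sites, found 2 times here and in 16.8% of all windows. The Gzmb window lies outside the gene as the expression table bounds it, from 56258838 to 56262260, so its start differs between the sources too. Chac1 (chr2:119350992-119351291, plus strand), a target of the stress factor ATF4, was searched for TGATGNAA, the core of CHOP and ATF4 composite elements, found 1 time and in 3.97% of all windows.
Cyp1a1: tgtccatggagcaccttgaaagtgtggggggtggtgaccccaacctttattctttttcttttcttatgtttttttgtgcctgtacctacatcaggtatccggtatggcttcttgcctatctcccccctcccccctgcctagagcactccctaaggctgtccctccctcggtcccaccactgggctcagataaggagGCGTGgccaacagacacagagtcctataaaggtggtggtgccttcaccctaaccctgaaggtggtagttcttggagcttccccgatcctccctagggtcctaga
Gzmb: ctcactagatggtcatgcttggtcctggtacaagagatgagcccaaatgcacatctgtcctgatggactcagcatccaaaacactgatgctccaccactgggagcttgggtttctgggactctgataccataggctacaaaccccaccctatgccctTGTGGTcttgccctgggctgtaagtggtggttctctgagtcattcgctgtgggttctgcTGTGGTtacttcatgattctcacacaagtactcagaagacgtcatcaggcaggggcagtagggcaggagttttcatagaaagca
Chac1: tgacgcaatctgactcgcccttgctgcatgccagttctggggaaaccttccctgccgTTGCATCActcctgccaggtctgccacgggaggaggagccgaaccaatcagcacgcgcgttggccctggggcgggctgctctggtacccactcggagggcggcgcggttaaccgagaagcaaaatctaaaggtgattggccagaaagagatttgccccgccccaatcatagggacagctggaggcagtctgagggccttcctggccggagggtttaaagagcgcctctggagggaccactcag

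Groups of genes were described with 60 lists written by hand, of pathways, cell types and other tissues, holding 1048 tested genes. The level of a list is its mean log2 value in a library. For 4 of the 60 lists the levels of the groups did not overlap, 3 lower and 1 higher in CeD, a share of 6.67%. The share of single genes was 4.69%, but a list mean and a single gene are unlike units. Exchanging the labels of 3 against 3 libraries gives no overlap at a rate of 0.1, and both shares lie below it. The lower ones were the cytotoxic and intraepithelial lymphocyte list, the T cell list and the vitamin A list, and the higher one was the goblet cell list. Counts of members below stand beside the shares of all tested genes. These were 49.6% negative and 50.4% positive, with 2.49% lower and 2.2% higher with no overlap.

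**Figure D4:**
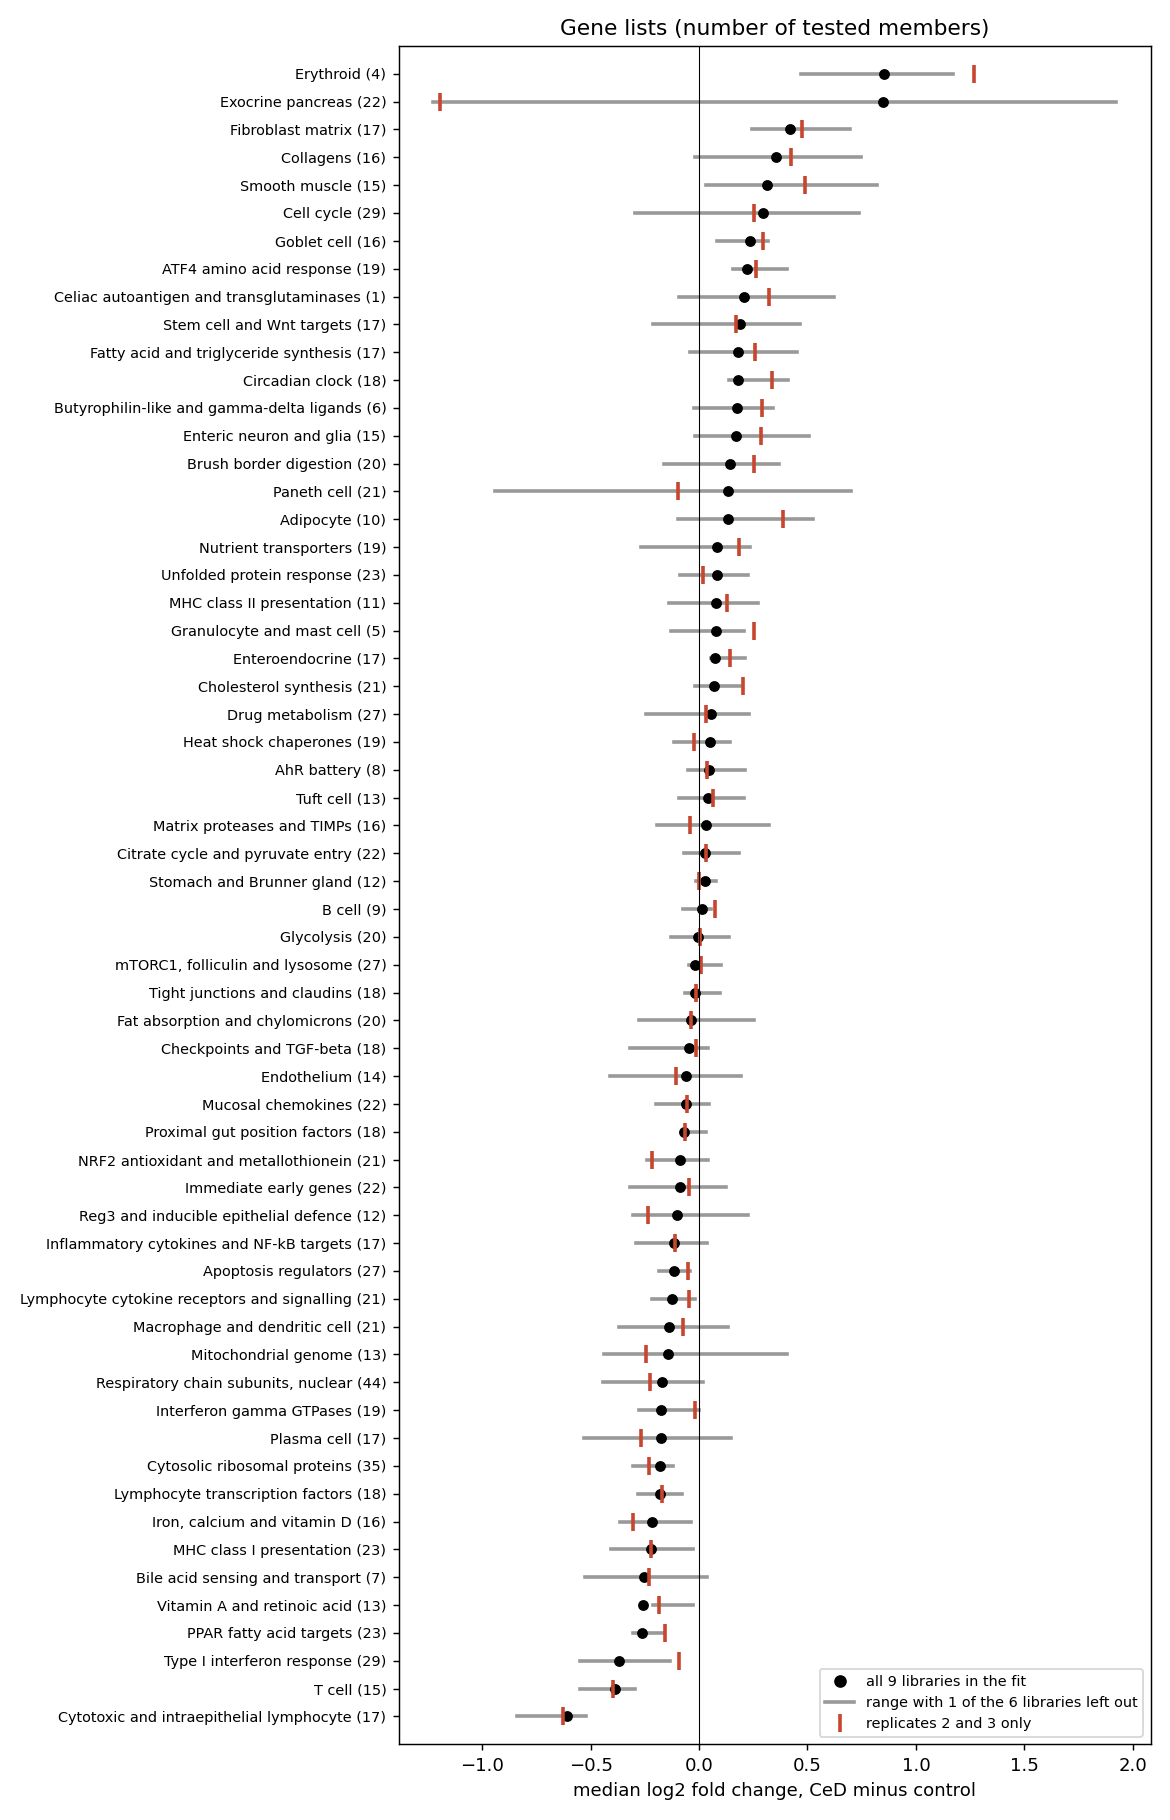
Median log2 fold change, CeD minus control (horizontal axis), of the 60 gene lists, with the number of tested members in brackets; black points use all libraries, grey bars span the medians with 1 of the 6 libraries left out, and red ticks use replicates 2 and 3 only. The cytotoxic and T cell lists lie lowest, and the pancreas, Paneth and cell cycle lists have the bars that cross 0 most widely.

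Genes of cytotoxic lymphocytes and T cells had almost only negative values. Of 17 tested genes of cytotoxic and intraepithelial lymphocytes, 16 had a negative log2 fold change, beside 49.6% of all tested genes, and 8 were lower with no overlap, beside 2.49%. Their median was -0.61, between -0.84 and -0.52 when 1 library was left out and -0.63 in replicates 2 and 3 alone. Granzyme B, Gzmb, the protease of killer cell granules, was at 43.6, 45.8 and 56.0 FPKM in control and at 25.8, 26.1 and 23.8 in CeD. Its log2 fold change was -0.92, with an unadjusted limma p of 0.0487 and an adjusted p of 1. The list level was 2.87, 3.13 and 3.23 in control and 2.24, 2.59 and 2.35 in CeD, so that every CeD library lay below every control library. The chemokine Ccl5 of activated T cells was at 45.7, 87.3 and 60.4 FPKM against 36.9, 40.9 and 46.5, with CeD 3 just above control 1.

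All 15 tested T cell genes had negative values, beside 49.6% of all tested genes, and 5 were lower with no overlap, beside 2.49%. The CD3 chain Cd3g was at 5.61, 8.5 and 8.11 FPKM in control and at 2.64, 4.10 and 3.79 in CeD, and Cd3e at 2.67, 2.51 and 1.69 against 1.09, 1.48 and 1.28. The kinase Zap70, which binds the phosphorylated CD3 chains, had a log2 fold change of -0.73. The median of the list was -0.39, between -0.55 and -0.30 when 1 library was left out. Its summed FPKM was 51.0 to 57.1 in control and 34.7 to 38.8 in CeD. Cd4 and Trac, the T helper co-receptor and the constant gene of the alpha chain, both overlapped between the groups and are named after their values were seen, at -0.34 and -0.18 on the log2 scale. The constant gene of the delta chain, Trdc, was at 2.44, 2.77 and 3.93 FPKM against 1.13, 1.63 and 2.26.

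Other lists of lymphocytes and myeloid cells held both signs. Of 21 cytokine receptor and signalling genes 13 were negative, with the receptor of interleukin 21, Il21r, at 1.54, 2.16 and 2.25 FPKM against 0.557, 1.15 and 0.931. Of 18 lymphocyte transcription factors 14 were negative, with Tbx21, the T-bet factor of T helper 1 and killer cells, at 0.971, 0.741 and 0.739 against 0.609, 0.446 and 0.512. The inhibitory receptors Tigit and Lag3 had log2 fold changes of -1.02 and -0.68, and Tigit, at 4.24, 2.16 and 2.52 FPKM against 2.01, 0.982 and 0.726, did not overlap. The 9 tested B cell genes had a median of 0.01, and 11 of 17 plasma cell genes were negative with a median of -0.18 that ran from -0.53 to 0.15 when 1 library was left out. An antibody gene went the other way, as Ighg2c was at 3.02, 0.618 and 1.48 FPKM in control and at 7.36, 2.20 and 6.36 in CeD, with the groups overlapping. The eosinophil granule gene Prg2 was at 4.85, 3.02 and 7.99 against 4.15, 1.08 and 1.09 FPKM. Of 21 macrophage and dendritic cell genes 15 were negative, with a median of -0.14 that changed sign when control 1 was left out, to 0.13.

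**Figure D5:**
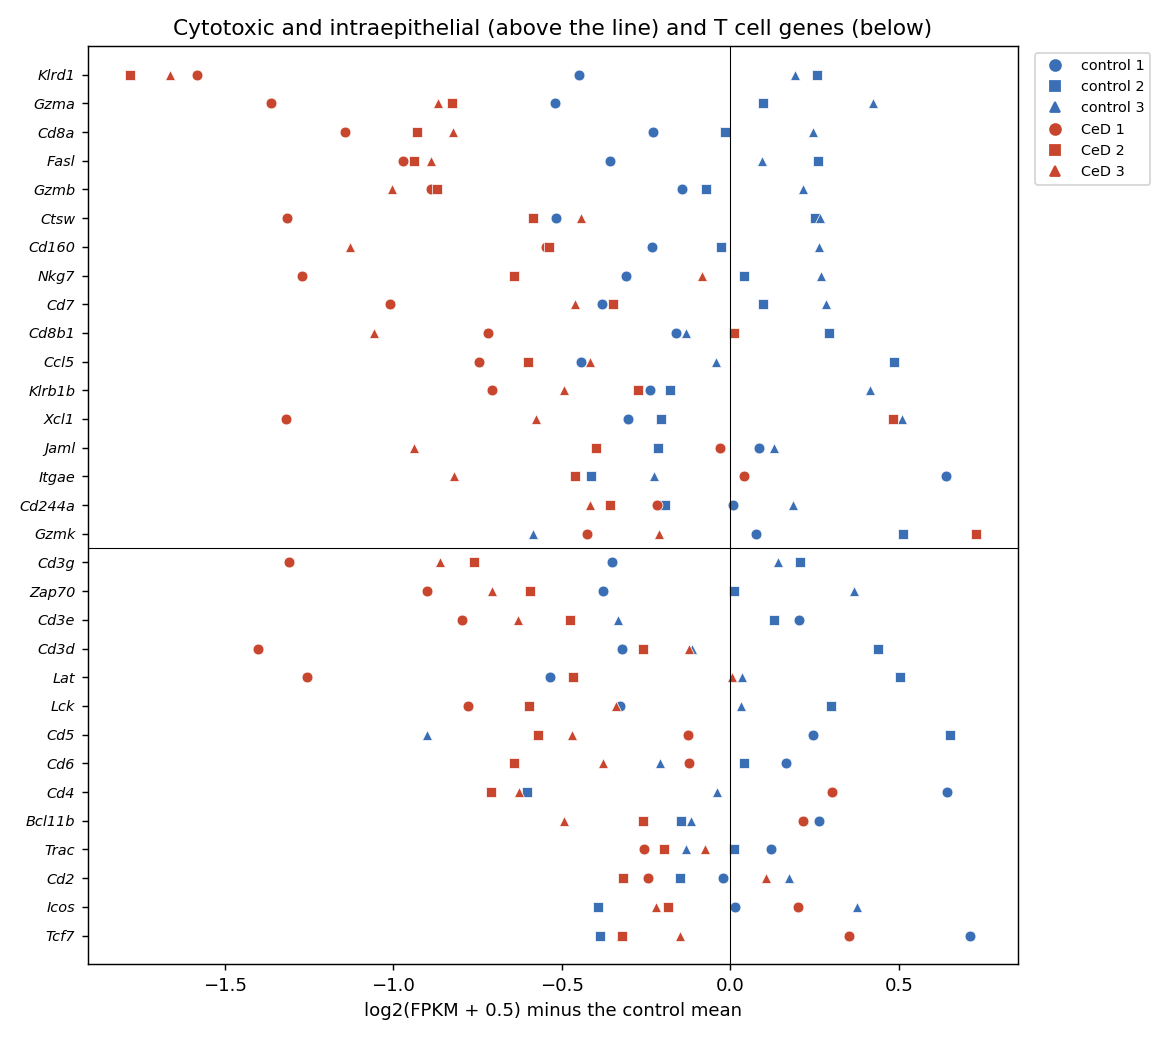
Log2(FPKM + 0.5) minus the mean of the 3 control libraries (horizontal axis) for 17 cytotoxic and intraepithelial genes (above the line) and 14 of the 15 T cell genes (below), 1 point per library with shapes for the replicate number. For Klrd1, Cd8a, Fasl and Gzmb all CeD points lie left of all control points, while the members nearest the bottom of each block overlap.

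Interferon genes were lower mainly between the libraries numbered 1. Of 29 type I interferon genes 27 were negative, beside 49.6% of all tested genes. With no overlap 3 were lower, beside 2.49%, and the median was -0.37. Between control 1 and CeD 1 the median difference was -0.86, and in replicates 2 and 3 it was -0.09. Bst2, which tethers budding virus, was at 87.2, 112 and 78.6 FPKM against 47.2, 58.2 and 76.0, and Ifit2 at 11.3, 8.85 and 3.14 against 3.58, 3.45 and 5.28. For Bst2, CeD 3 lay just below the control range, and for Ifit2 every CeD library lay within it. The 19 interferon gamma GTPases had a median of -0.17, and of -0.02 in replicates 2 and 3. The chemokine Cxcl10, another interferon target, was at 7.63, 7.70 and 5.08 FPKM against 1.72, 3.30 and 7.87.

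Antigen presentation genes are given by class. Of 23 MHC class I genes 21 were negative, beside 49.6% of all tested genes, and 2 were lower with no overlap, beside 2.49%. Their median was -0.22, which was -0.03 without CeD 1. H2-Q6 was at 43.4, 45.0 and 57.0 FPKM against 23.1, 24.9 and 37.1, but reads of this gene can be shared with near-identical H2-Q genes, so its value is uncertain. H2-M3, which presents formylated peptides, was at 6.88, 6.32 and 7.21 against 6.01, 4.73 and 4.43, and the peptide transporter Tap1 had a log2 fold change of -0.49. Of 11 class II genes 8 were positive, with a median of 0.08 that ran from -0.14 to 0.27 when 1 library was left out. The difference between the 2 classes was not tested. Tgm2, the transglutaminase that is the celiac autoantigen, was at 22.4, 9.09 and 9.29 FPKM in control and at 22.1, 9.68 and 13.9 in CeD, so the number 1 libraries were highest in both groups.

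Inflammatory and epithelial defence genes showed no common direction. Of 17 tested cytokine and NF-kB genes 9 were negative and 8 positive, with a median between -0.29 and 0.03 when 1 library was left out. The alarmin Il33 was at 5.18, 12.5 and 9.72 FPKM in control and at 5.93, 23.2 and 30.5 in CeD, higher in CeD 2 and CeD 3 alone. The antimicrobial lectin Reg3g was at 146, 156 and 249 FPKM against 267, 81.9 and 1392, and only CeD 3 stood far above control. Rela, the p65 subunit of NF-kB, was at 15.7, 15.6 and 15.0 against 11.7, 13.5 and 14.9 FPKM, lower with no overlap by a narrow margin.

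Genes of protein synthesis were lower by small amounts. Of 35 cytosolic ribosomal protein genes 32 were negative, beside 49.6% of all tested genes, and 9 were lower with no overlap, beside 2.49%. The median was -0.18. It stayed between -0.30 and -0.12 when 1 library was left out and was -0.06 between the libraries numbered 1. Rps23 was at 170, 180 and 213 FPKM against 159, 125 and 148, Rps20 at 59.1, 70.3 and 77.1 against 55.4, 53.9 and 53.0, and Rps14 at 264, 343 and 334 against 239, 236 and 260. In all 3 genes the largest step was in replicates 2 and 3. Ribosomal protein genes have many processed pseudogenes, and the authors' counting could split reads between them.

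Of 44 nuclear genes of the respiratory chain 39 were negative and 0 lacked overlap, with a median of -0.17. The complex III subunits Uqcrfs1 and Uqcrb had log2 fold changes of -0.31 and -0.38. The list level was lower in both libraries numbered 1 than in the rest, 6.48 and 6.44 against 6.89 to 7.25, and the median was 0.02 without CeD 1. Mitochondrially encoded RNA made up 4.15% to 10.2% of control reads and 4.42% to 7.22% of CeD reads, with the highest share in control 2. Citrate cycle and glycolysis genes had medians of 0.03 and 0.00, and Mpc1 was the 1 citrate cycle and pyruvate gene with no overlap.

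Genes of fat oxidation had mostly negative values. Of 23 PPAR targets 18 were negative, beside 49.6% of all tested genes. With no overlap 3 were lower, Angptl4, Pdk4 and Slc25a20, beside 2.49% of all tested genes. The kinase Pdk4, which shuts pyruvate dehydrogenase, was at 43.0, 36.2 and 46.9 FPKM against 21.5, 34.4 and 22.4, and the carnitine carrier Slc25a20 at 23.6, 25.8 and 23.2 against 16.6, 20.0 and 21.6. The median was -0.26, between -0.31 and -0.17 when 1 library was left out, and Angptl4 was far beyond it. The abundant carriers Fabp1 and Fabp2 had log2 fold changes of -0.34 and 0.04 with overlap. Fat absorption genes were evenly split, with 10 of 20 negative and a median between -0.28 and 0.25 when 1 library was left out, and the apolipoprotein Apoa4 was at 1700, 2495 and 1980 FPKM against 1297, 3736 and 2131. Among fat synthesis genes 12 of 17 were positive with a median of 0.18, which was -0.04 without CeD 1, and the phosphatidate phosphatase Lpin2, at 6.48, 7.24 and 7.24 against 9.34, 13 and 10.2, and the desaturase Scd2 were higher with no overlap. Of 21 cholesterol synthesis genes 15 were positive, with a median of 0.07 that was -0.02 without control 3.

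The bile acid genes held the transcription factor with the smallest p. Nr0b2 encodes SHP, a repressor that is induced through the bile acid receptor FXR. Nr0b2, at chr4:133553376-133556536 of mm10, was at 9.36, 15.6 and 15.0 FPKM in control and at 6.89, 7.72 and 7.18 in CeD, a log2 fold change of -0.80 with an unadjusted limma p of 0.0458 and an adjusted p of 1. All CeD libraries lay within a narrow range below control 1. The FXR gene itself, Nr1h4, was at 25.1, 30.8 and 31.3 against 19.5, 18.7 and 25.4 FPKM, with CeD 3 just above control 1, and the bile acid exporter subunit Slc51b had a log2 fold change of -0.31 with overlap.

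Metal, vitamin and xenobiotic genes varied by member. The manganese and zinc exporters Slc30a10 and Slc30a1 were at 32.5, 34.7 and 40.5 FPKM against 28.6, 16.3 and 11.9, and at 11.1, 15.3 and 19.2 against 9.79, 9.98 and 9.86. Both were lower with no overlap, and for Slc30a10 the gap was wide in CeD 2 and CeD 3, the libraries with little Pdx1. Haem oxygenase, Hmox1, was at 1.69, 1.44 and 1.73 FPKM against 1.12, 0.476 and 0.832, while the glutathione peroxidase Gpx2 was at 25.2, 15.0 and 38.3 against 52.4, 31.6 and 129. Gpx2 overlapped only between control 3 and CeD 2. Cyp24a1, the vitamin D hydroxylase, was at 52.2 FPKM in control 3 and at most 0.307 in the other 5, so its fold change rests on 1 library. The genes Gpx2, Slc30a10 and Cyp24a1 overlap Fntb, Gm2061 and Pfdn4 on the opposite strand. Of 13 vitamin A genes 10 were negative, with the list level at 4.07 to 4.16 in control and 3.92 to 4.05 in CeD, and their median of -0.26 was -0.03 without CeD 1. The receptor Rara was at 8.28, 9.69 and 9.75 FPKM against 6.58, 7.47 and 7.13, and the homeobox repressor Isx at 61.7, 68.8 and 67.4 against 44.4, 60.1 and 59.2. Of 27 drug metabolism genes 17 were positive with a median of 0.06, between -0.24 (without CeD 2) and 0.23 when 1 library was left out, and the efflux pump Abcb1a was at 156 FPKM in CeD 2 against 39.2 to 65.7 in the other 5.

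Amino acid stress genes were positive in value. Of 19 ATF4 targets 14 were positive, beside 50.4% of all tested genes, with a median of 0.22 that stayed between 0.15 and 0.41 when 1 library was left out. Chac1, which degrades glutathione, was at 0.705, 0.292 and 0.543 FPKM in control and at 2.02, 1.06 and 1.63 in CeD, the 1 member with no overlap and the gene whose promoter is printed above. The mTORC1, folliculin and lysosome list had 12 of 27 positive and a median of -0.02, so Flcn stood apart from it, with its partner Fnip1 at 5.75, 6.16 and 5.70 against 7.87, 7.76 and 6.03 FPKM. The unfolded protein response list had a median of 0.08, and its lectin chaperone Canx was higher with no overlap at 73.0, 71.2 and 60.4 against 78.1, 81.0 and 75.3.

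Clock genes had more positive than negative values. Of 18 tested clock genes 12 were positive, with a median of 0.18 that stayed between 0.14 and 0.41 when 1 library was left out and was 0.34 in replicates 2 and 3. The list level was 2.22, 2.55 and 2.31 in control 1, 2 and 3 and 2.39, 2.90 and 2.64 in CeD, with CeD 1 inside the control range. Dbp, an output gene with a strong daily rhythm, was at 2.29, 10.8 and 2.02 FPKM in control and at 4.48, 27.2 and 20.7 in CeD. Each CeD library was above the control library of the same number, yet CeD 1 lay below control 2. The gene Dbp overlaps Sphk2 on the opposite strand. Npas2, which peaks in the opposite phase, was at 4.63, 4.26 and 8.13 against 3.25, 3.84 and 3.27 FPKM, lower with no overlap. The labels give no time of sampling.

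Fibroblast matrix, collagen and smooth muscle genes were mostly positive in value, while other stromal lists held both signs. Of 17 fibroblast matrix genes 14 were positive, beside 50.4% of all tested genes, and 2 were higher with no overlap, beside 2.2%. Their median of 0.42 stayed between 0.24 and 0.70 when 1 library was left out. Decorin, Dcn, was at 15.5, 4.74 and 5.51 FPKM against 18.2, 9.07 and 20.3, and Ogn at 4.60, 5.43 and 6.45 against 4.83, 8.98 and 18.3. CeD 3 was highest of the 6 libraries for both, as for Lum, but their groups overlapped. Of 16 collagens 15 were positive with a median of 0.36, but it was -0.02 without CeD 1. The collagen chain Col1a1 was at 8.85, 3.04 and 2.81 FPKM against 15.2, 4.47 and 6.79, with each library above its control of the same number. Of 15 smooth muscle genes 12 were positive with a median of 0.32, which was 0.03 without CeD 3. Their FPKM summed to 511, 811 and 820 in control against 449, 881 and 1690.2 in CeD, and the part of muscle in the stromal values was not tested. The matrix protease Mmp14 went the other way, at 11.1, 12.6 and 14.9 against 9.59, 7.74 and 10.6 FPKM. Endothelial genes had a median of -0.06, between -0.41 (without CeD 1) and 0.19 when 1 library was left out.

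Epithelial lineage lists are given by cell type. Of 20 brush border genes 14 were positive with a median of 0.14, which was -0.16 without CeD 2, and lactase, Lct, was at 123, 259 and 152 FPKM against 143, 481 and 204, highest in CeD 2. Nutrient transporters had a median of 0.08, between -0.27 (without CeD 2) and 0.24 when 1 library was left out, and tight junction genes one of -0.02. Of 16 goblet genes 13 were positive and 0 lacked overlap, with a list level of 5.49 to 5.65 in control and 5.70 to 6.03 in CeD and a median of 0.24, which was 0.08 without CeD 2. Their mucin Muc2 was at 85.6, 75.3 and 79.6 FPKM against 82.6, 140 and 116, higher in CeD 2 and CeD 3 alone. Tuft and enteroendocrine lists had medians of 0.04 and 0.07, and neurotensin, Nts, was at 0.880, 0.985 and 1.14 against 1.62, 2.72 and 2.77 FPKM. Cell cycle genes were positive for 28 of 29 members, but the median of 0.30 became -0.29 without CeD 1 and 0.74 without control 1. The Paneth list likewise went from 0.14 to -0.94 without CeD 1. The exocrine pancreas list had 20 of 22 positive and a median of 0.85, which was -1.23 without CeD 1.

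The study's design text names changes at the level of transcription factors as its aim. Of 1469 genes that the table assigns to a transcription factor family 807 were tested, in 61 families, and 0 passed the adjusted test. With no overlap 19 were higher, 2.35%, and 17 lower, 2.11%, both close to the shares among all genes, and Nr0b2 alone had an unadjusted limma p under 0.05. The C2H2 zinc finger family, the largest with 327 of the 807 tested factors, held 11 of the 19 higher and 3 of the 17 lower factors. Among all tested genes 2.2% were higher and 2.49% lower with no overlap. A departure of the family from these shares was not tested. Chosen after their values were seen, the zinc finger gene Zfp689 was at 1.02, 0.698 and 0.900 FPKM against 1.33, 1.46 and 1.17, and the muscle and B cell factor Msc at 2.42, 1.69 and 2.26 against 1.21, 0.518 and 1.43. Stat2, which carries type I interferon signals, was at 18.8, 17.9 and 16.8 FPKM against 10.9, 13.8 and 15.9. Smad6, an inhibitor of BMP signals, was at 9.46, 9.38 and 8.82 against 5.62, 8.29 and 7.76, and E2f5 at 6.10, 7.47 and 6.82 against 4.88, 5.14 and 4.29.

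The nanoparticle group is set beside these values without a test, since it shares the CeD group with any reading of a reversal. The part of the stomach transcripts of CeD+GR 3 and the fat transcripts of CeD+GR 2 in its values was not tested. Angptl4 was at 44.5, 45.9 and 18.7 FPKM in CeD+GR 1, 2 and 3, with CeD+GR 1 and 2 in the control range and CeD+GR 3 near CeD. Cyp1a1 was at 0.394, 1.59 and 0.176 FPKM there, each below the lowest CeD value of 1.61. CeD+GR 2 was only just below it and lay above every control library, the highest of which was at 1.10. Klrd1 was at 4.59, 10.3 and 2.01, Cd8a at 8.17, 10.8 and 4.34 and Fasl at 2.07, 2.36 and 0.853 FPKM, so that CeD+GR 3 was the lowest of all 9 libraries for these genes. Bok was at 34.6, 19.9 and 22.8 FPKM, above every library of both other groups. Mpc1 was at 9.09, 8.97 and 6.43 FPKM, within the range of CeD and above control. Flcn was at 4.99, 7.71 and 9.69, above every control library, with CeD+GR 2 and 3 also above every CeD library.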

How the data were processed

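Libraries were made from duodenal RNA after removal of ribosomal RNA with a directional kit, per the labels' protocols. The values are FPKM per gene as deposited by the authors, in mm10 coordinates; the tools listed per the submitters' processing notes are featureCounts 1.5.0-p3, HISAT2 2.0.5, DESeq2 1.20.0 and fastp, without their roles. The sources used here give no annotation release, strand setting or FPKM formula. Multiplied by gene length, the FPKM were whole multiples of 1 step per library within 0.1 reads, giving 15373260 to 16852104 reads per library, so differences in low genes are limited by counting. The library size implied by the step was not the number of assigned reads. It was 18206400 against 16185014 reads in control 1 and 14641200 against 16372119 in control 2.

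Genes averaging 0.5 FPKM or more across the 9 libraries were fitted as log2(FPKM + 0.5) with limma 3.58.1 in R 4.3.3, a group-means model with trended empirical Bayes moderation and two-sided Benjamini-Hochberg adjustment at 0.05. The smallest exact permutation p of 3 against 3 libraries is 0.1. The fit was tested on simulated data. Members and lists were chosen with earlier results of these data known. Named genes are the 12 protein-coding genes per direction with the smallest unadjusted p among those with no overlap and 1 FPKM or more on average in the higher group, up to 4 members per list with the smallest unadjusted p, and tissue markers; transcription factors without overlap were added after their values were seen. A gene that the rule takes is not reported here. Deviations from the group mean correlated at 0.71, 0.37 and 0.41 between the control and CeD libraries with the same number, which by a limit of 0.1 counts as pairing, although control 2 correlated more with CeD 3, 0.46. The pairing comes from the replicate numbers in the titles. Alternatives changed the pseudocount, filter, normalization, model and libraries.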

Additional observations from a re-analysis of the deposited data

How the results depend on the processing

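In every alternative run 0 genes passed limma at an adjusted p under 0.05, with array weights coming nearest at a smallest adjusted p of 0.0697. The counts of higher and lower genes at an unadjusted p under 0.05, 40 and 63, were 569 and 785 with array weights, 285 and 220 without a filter, 19 and 33 with a mean of at least 2 FPKM, 14 and 36 among protein-coding genes, 96 and 142 in a fit of only CeD and control, 115 and 189 in replicates 2 and 3, and 74 and 126 with a term for replicate 1. With limma-voom on the recovered reads they were 27 and 37. Median-of-ratios rescaling left them at 40 and 63, and the genes without overlap at 689, so it changed nothing in these counts. Without CeD+GR replicate 3, left out after the data were seen, they were 66 and 97. Leaving out 1 of the 6 libraries gave 19 to 148 higher and 32 to 266 lower genes, with the highest counts without control 1. The 689 genes without overlap became 436 with a mean of at least 2 FPKM, 1369 without a filter, 5771 in replicates 2 and 3, and 1170 to 4236 without 1 library, where fewer libraries make overlap rarer by construction. In the paired fit with the replicate block the counts were 74 and 119, and it changed no other call.

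Among the genes whose log2 fold change was followed through the alternatives, 12 values turned sign. Genes given above by their levels alone, such as Vil1, were not all followed. With 1 of the 6 libraries left out, Apoa4 ran from -0.29 (without CeD 2) to 0.47 and was -0.03 without control 1, and Fabp1 ran from -0.55 to 0.048 (without CeD 1). Fabp2 ran from -0.35 (without control 1) to 0.54 and was -0.31 and -0.10 without CeD 2 and CeD 3. Reg3g ran from -0.27 (without CeD 3) to 1.77, Slc51b from -0.53 to 0.035 (without CeD 1), and Tgm2 from -0.093 (without CeD 1) to 0.62, with -0.0064 without control 2. Tiparp was at 0.055 with array weights and 0.052 in replicates 2 and 3, and the cause was not tested.

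With a median standard error of 0.35 in log2 units and 3 libraries a group, small differences are not detectable, and values of genes with few reads carry counting error that FPKM does not show.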

Other observations

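The smallest unadjusted p-values of the comparison belonged to short or noncoding genes outside the naming rule, and they are given here after their values were seen. The small nuclear RNA gene Gm24400 was at 0.513, 0 and 0 FPKM in control and at 4.19, 2.59 and 3.97 in CeD, with an unadjusted limma p of 0.000419, and it rests on 20 reads in the 6 libraries. The small nucleolar RNA Snord65, a guide for modification of ribosomal RNA, was at 1.53, 5.69 and 5.76 against 0, 0.964 and 0 FPKM, from 16 reads. The processed pseudogene Gm15536 was at 11.1, 18.6 and 22.4 against 5.90, 4.87 and 7.98 FPKM, from 132 reads. Processed pseudogenes had no overlap for 6.60% of 742 tested genes, beside 4.55% of 12391 protein-coding genes. The 99 tested small nucleolar RNA genes had a median log2 fold change of -0.36, and the 159 antibody variable segments had a median of -0.26 with 0 genes without overlap.

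Some protein-coding genes had large fold changes with no overlap and a wide spread within CeD. The myelin and epithelial membrane protein Pmp22 was at 9.33, 6.04 and 1.76 FPKM in control and at 15.8, 119 and 9.41 in CeD, high in CeD 2. Clusterin, Clu, an extracellular chaperone, was at 2.13, 3.48 and 3.09 against 5.14, 6.76 and 13.5 FPKM. Bcl2l15, a BCL-2 relative of the gut epithelium, was at 1.09, 1.03 and 1.31 against 1.86, 2.10 and 9.64, and Clu and Bcl2l15 were both highest in CeD 3. Heat shock and immediate early genes had list medians of 0.05 and -0.09, and mucosal chemokines of -0.06. Of 27 apoptosis regulators 18 were negative, and Bok, the lowest of them at -0.89, was followed by Bcl2a1d at 3.31, 3.80 and 2.40 against 1.49, 1.37 and 2.32 FPKM. Bcl2a1d rests on 208 reads in the 6 libraries, and control 3 and CeD 3 nearly met. Of 15 enteric neuron and glia genes 13 were positive with a median of 0.17, which was -0.02 without CeD 3, the library with the highest muscle level.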
